A study of Mus musculus with 10 samples.

Results

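The genes described here encode the nuclear subunits of the oxidative phosphorylation system, followed across the hippocampi of A-CREB and wild-type mice given saline or kainate. They were taken by symbol: names beginning with Nduf followed by a, b, c, s or v (complex I), the 4 Sdh genes (complex II), names beginning with Uqcr (complex III), with Cox and a digit from 4 to 8 (complex IV), or with Atp5 (complex V). For each gene the probe set that names 1 gene and has the highest mean log2(signal + 22) over the 10 arrays was used, and the gene was kept where that mean was above 6.47. In all, 90 genes matched and 88 were kept, out of 13218 genes tested on the array. Cox4i2 was just inside the threshold (6.61), and Ndufb4 (6.35) and Cox7b2 (6.06) were outside it. The 88 comprised 35 complex I genes, 8 complex I assembly factors whose names begin with Ndufaf, 4 genes of complex II, 8 of complex III, 16 of complex IV and 17 of complex V.

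RNA was measured on Affymetrix whole-genome mouse arrays, with 2 arrays in each of 5 groups. The groups were wild-type mice (C57BL6 F1/J) given saline or kainate at 14 mg/kg, and A-CREB mice (TetO-A-CREB-95 C57BL6 F1/J) given saline, kainate at 14 mg/kg or kainate at 18 mg/kg. The higher dose was given to A-CREB mice alone. A-CREB is a dominant-negative protein that pairs with CREB family transcription factors and keeps them off DNA. TetO marks a transgene that needs a tetracycline-controlled transactivator, whose promoter the sources used here do not name. Kainate activates a class of glutamate receptors and causes seizures. Each sample was hippocampal RNA pooled from 3 to 4 mice 3 weeks old, with 14 wild-type and 20 A-CREB mice in all. The time from injection to dissection is not stated there either. The 2 arrays of a group carry the replicate numbers 1 and 2, and the labels do not say what a number marks. With pools as samples, p-values measure the spread between pools of one group.

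Oxidative phosphorylation takes place in the inner mitochondrial membrane. Complex I accepts electrons from NADH and complex II from succinate, complex III passes them from ubiquinol to cytochrome c, and complex IV hands them to oxygen. Complexes I, III and IV pump protons, and complex V, the ATP synthase, uses the returning protons to make ATP. Neurons obtain most of their ATP this way, which supports ion pumping and synaptic transmission. Most subunits are encoded in the nucleus, and a core set is encoded by mitochondrial DNA. Some complex IV subunits have paralogs that are restricted to certain tissues, such as heart, muscle, lung or testis.

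The deposited MAS5 signals had been scaled to the same 2% trimmed mean on each array. The median signal of an array was 94.5 to 106 on the 5 arrays numbered 1 and 134 to 152 on the 5 numbered 2. Kainate was checked by the activity genes Fos and Npas4, whose log2 differences in wild-type mice were 3.26 (SE 0.22, limma adjusted p = 0.0002375) and 5.53 (SE 0.27, limma adjusted p = 2.834e-05). Markers of the tissue were present: all 7 dentate granule cell markers and all 8 general neuronal markers passed the intensity filter. The summed signal of the dentate markers ran from 7620 to 10280 over the 10 arrays. In pooled tissue, fewer cells of a type and less RNA per cell cannot be told apart.

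After 14 mg/kg kainate in wild-type mice, 83 of the 88 genes had a higher group mean than after saline, against 41.7% of all tested genes, but none passed the test. The median log2 difference over the 88 was 0.20, a ratio of 1.15, and the median over all tested genes was -0.05. By limma 0 of 88 members were called at an adjusted p of 0.05, where 0.182% of all genes were called, and 2 had an unadjusted p under 0.05 (3.53% of all genes). With the replicate number as a block 0 members were called again (0.711% of all genes), and 15 had an unadjusted p under 0.05, against 9.75% of all genes. Both saline arrays lay below both kainate arrays for 34 members, which holds for 10.2% of all genes, and above both for Ndufa4l2 and Cox7a1, which holds for 16.6%. The typical 95% interval of a member reached 0.44 to either side of its difference. The median depended on the array: it was 0.28 between the arrays numbered 1 and 0.07 between those numbered 2. With 1 array left out at a time, the median became 0.06 (wild-type kainate, number 1) or 0.33 (wild-type kainate, number 2), the array left out being in parentheses. After quantile normalization it was 0.09.

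Every complex had a positive median in this comparison. The medians were 0.19 for complex I, 0.18 for its assembly factors, 0.12 for complex II, 0.24 for complex III, 0.21 for complex IV and 0.23 for complex V. The 7 tissue-restricted or low-oxygen-induced paralogs among the members (Ndufa4l2, Cox4i2, Cox6a2, Cox6b2, Cox7a1, Cox8b and Cox8c) had a median of -0.04. All 7 were dim, with mean log2 signals of 6.61 to 8.96, so the kind of paralog and the low signal cannot be told apart. Highly expressed genes as a whole also had positive differences. The 64 members with a mean log2 signal above 12 had a median of 0.21, and the 857 other tested genes above that level had a median of 0.09. After quantile normalization these medians were 0.08 and -0.03. The difference between members and other bright genes was not tested.

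**Figure D1:**
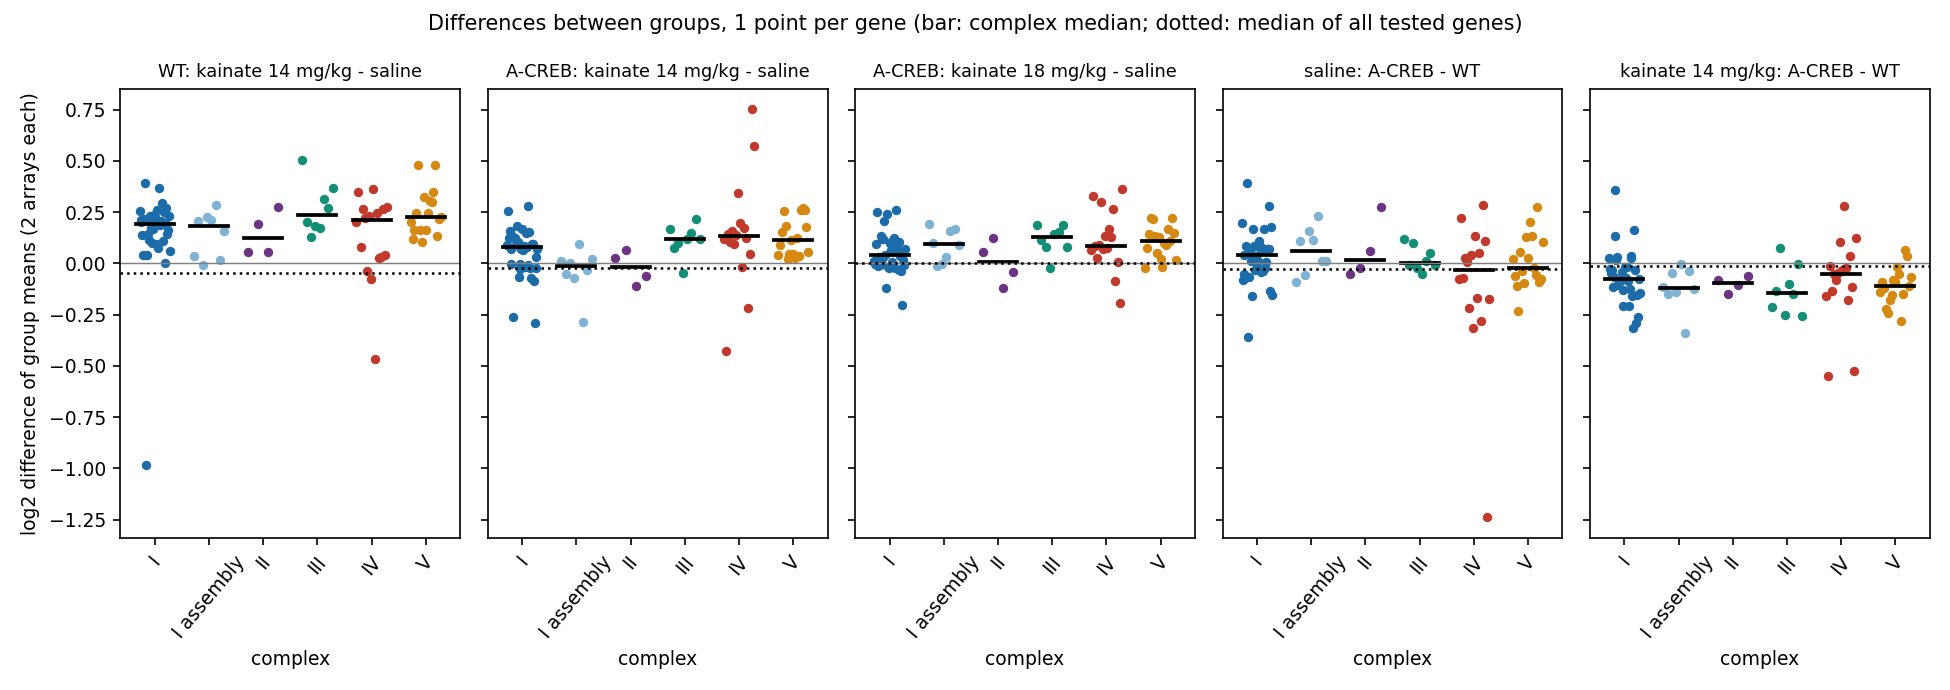
Log2 differences between group means (vertical axis) for each of the 88 genes, by complex (horizontal axis), in 5 comparisons. Each point is 1 gene, the bar is the median of the complex and the dotted line is the median of all tested genes. In wild-type mice 83 points lie above 0 after kainate, and the lowest is Ndufa4l2 at -0.98.

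Per-array signals below follow the order wild-type saline, wild-type kainate, A-CREB saline, A-CREB kainate 14 mg/kg and A-CREB kainate 18 mg/kg. Among the core subunits, Ndufs1, an iron-sulfur subunit that carries electrons within complex I, read 3393, 3905, 3382, 3214 and 3791 on the arrays numbered 1 and 2749, 2778, 2666, 2710 and 2595 on those numbered 2. Its difference in wild-type mice was 0.11 (SE 0.25, adjusted p = 0.9999 by limma). The arrays numbered 1 were above those numbered 2 in every group. Sdha, the flavoprotein of succinate dehydrogenase, was the steadiest of complex II: its 10 signals lay between 6539 and 7690, and its difference was 0.05 (SE 0.15). Uqcrc1, a core subunit of complex III, had a difference of 0.18 (SE 0.19), and Cox4i1, the common form of subunit 4 of cytochrome c oxidase, of 0.20 (SE 0.20). Atp5b, the catalytic beta subunit of ATP synthase, read 16903, 18039, 15937, 17337 and 17804 on number 1 and 17027, 18818, 16565, 17240 and 16479 on number 2. Both wild-type kainate signals of Atp5b were above both saline signals, with a difference of 0.12 (SE 0.13).

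The 3 highest members in wild-type mice were small subunits of complexes III and V. Uqcr10, a small subunit of complex III, read 4196 and 3933 after saline and 5510 and 6043 after kainate. Its difference was 0.50 (SE 0.20, limma adjusted p = 0.9999), and 0.2937 was the adjusted p with the replicate block. Atp5e, the epsilon subunit of the ATP synthase rotor stalk, read 3438 and 2676 after saline and 4329 and 4151 after kainate, a difference of 0.48 (SE 0.19). These 2 genes were the members with an unadjusted p under 0.05, and neither overlapped between the groups. Atp5md, a small membrane subunit of the synthase, had a difference of 0.48 (SE 0.35), from 8633 and 6607 to 13984 and 7940, so that its groups overlapped. The lowest member was Ndufa4l2, a paralog of Ndufa4 known for its induction by low oxygen, at -0.98 (SE 0.46). It was dim, with 193 and 152 after saline against 50.8 and 110 after kainate. Cox7a1, the heart and muscle form of subunit 7a, stood at -0.47 (SE 0.41), with 112 and 108 against 48.5 and 107. Cox6b2, the testis form of subunit 6b, stood at -0.08 (SE 0.32).

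**Figure D2:**
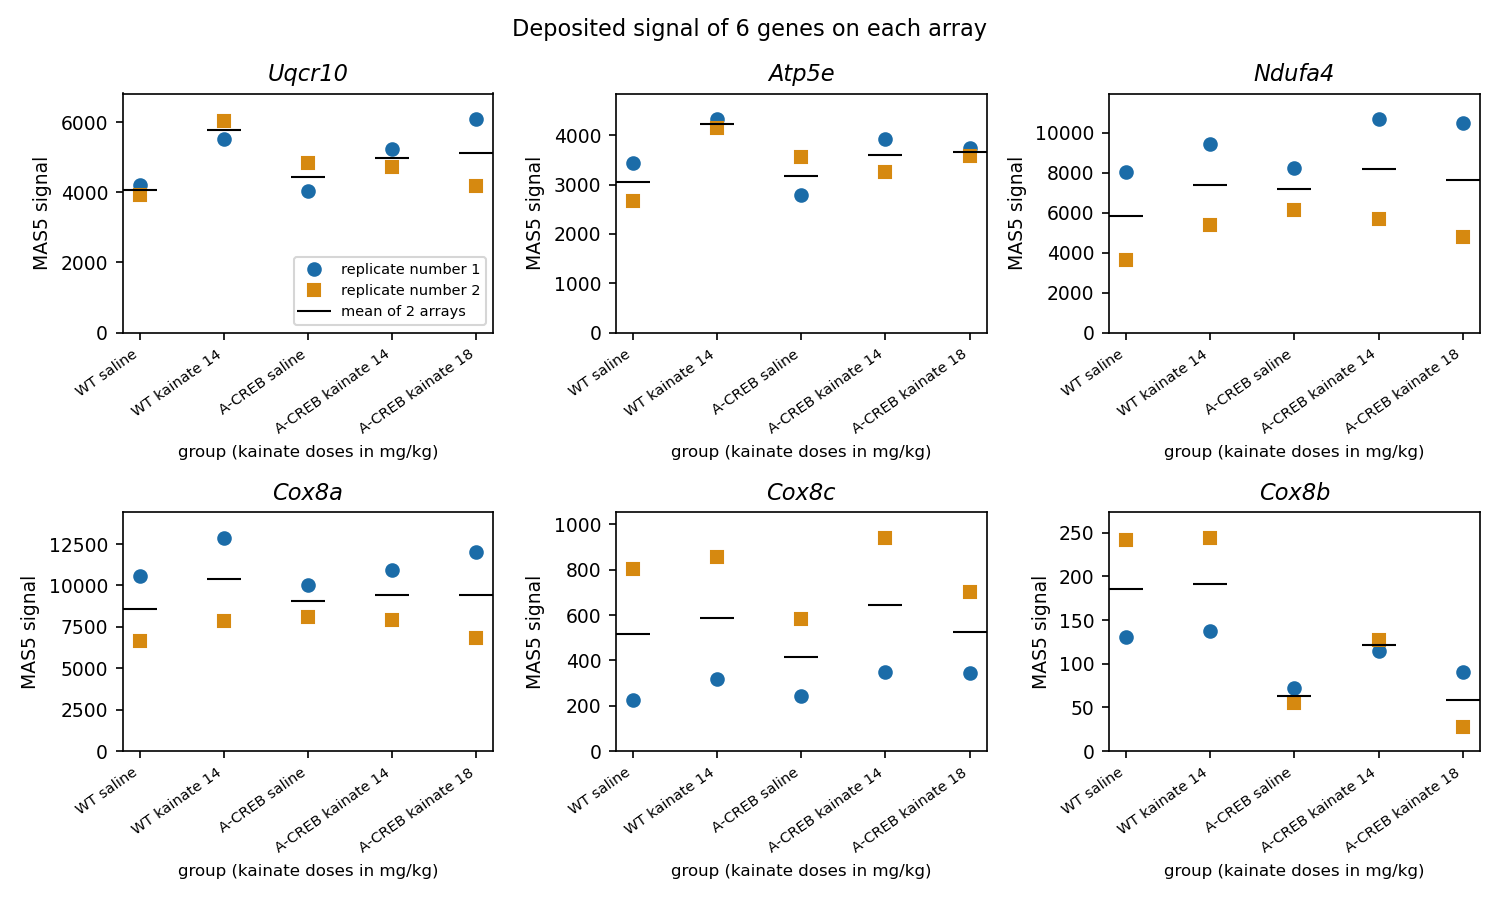
Deposited MAS5 signal (vertical axis, from 0) of 6 genes on the 10 arrays, by group (horizontal axis). Circles are arrays numbered 1, squares are arrays numbered 2 and the dash is the mean of both. Uqcr10 and Atp5e do not overlap between wild-type saline and kainate, Ndufa4 and Cox8a are lower on number 2 in all 5 groups, Cox8c is higher there, and Cox8b reads 71.9 and 54.8 in A-CREB saline against 131 and 241 in wild-type saline.

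In A-CREB mice no member passed the test after 14 mg/kg kainate. The median over the 88 genes was 0.09, against -0.02 over all genes, and 66 members were above 0, against 45.9% of all genes. Limma called 0 of 88, where 0.31% of all genes were called, and no member had an unadjusted p under 0.05 (4.99% of all genes did). With the block it called 0 again (1.26% of all genes), with 1 member at an unadjusted p under 0.05 (11.8% of all genes). That member was Cox8c, the testis-specific form of subunit 8, at 0.57 (SE 0.71 without the block, and adjusted p = 0.2321 by limma with it). Its arrays read 243 and 584 after saline and 347 and 942 after kainate, so both numbers had a higher signal after kainate while the groups overlapped. The arrays did not overlap for 15 members with higher signals after kainate (13% of all genes) and for 2 with lower ones, Ndufs8 and Ndufaf6 (16% of all genes). The highest member was Cox8b, the heart and muscle form of subunit 8, at 0.75 (SE 0.50), from 71.9 and 54.8 to 115 and 128, and next after Cox8c came Cox6b2 at 0.34 (SE 0.32). The lowest were Cox4i2, the lung form of subunit 4, at -0.43 (SE 0.83), Ndufs8, an iron-sulfur subunit of complex I, at -0.29 (SE 0.22), and the assembly factor Ndufaf6 at -0.29 (SE 0.29). The median was 0.16 on the arrays numbered 1 and -0.01 on those numbered 2. With 1 array left out at a time, the median became -0.01 (A-CREB 14 mg/kg, number 1) or 0.19 (A-CREB 14 mg/kg, number 2), the array left out being in parentheses. After quantile normalization it was 0.02.

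At 18 mg/kg in A-CREB mice the median difference from saline was 0.09, against 0.00172 over all genes, and 68 members were above 0 (50.3% of all genes). Limma called 0 members without the block (0.235% of all genes) and 0 with it (0.696% of all genes), and 0 had an unadjusted p under 0.05 in either fit (2.79% and 8.94% of all genes did). The arrays did not overlap for 5 members with higher signals (12.4% of all genes) and for 1 with lower ones, Ndufab1, the acyl carrier protein of complex I (12.2%). The 5 were Atp5d, Atp5e, Cox5a, Ndufa7 and Uqcrfs1. The highest were Cox8c at 0.36 (SE 0.71), Cox4i2 at 0.33 (SE 0.83) and Cox6a2, the heart and muscle form of subunit 6a, at 0.30 (SE 0.25). Ndufs8 stood at -0.20 (SE 0.22), Cox8b at -0.19 (SE 0.50) and Sdhc, a membrane anchor of complex II, at -0.12 (SE 0.17). The replicate numbers went opposite ways: the median was 0.24 on number 1 and -0.10 on number 2. With 1 array left out at a time, the median became -0.10 (A-CREB 18 mg/kg, number 1) or 0.26 (A-CREB 18 mg/kg, number 2), the array left out being in parentheses. After quantile normalization it was 0.04.

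Between the doses in A-CREB mice, the median of 18 minus 14 mg/kg was -0.01, with 0.02 over all genes, and 39 members were above 0 (54.7% of all genes). Limma called 0 members without the block (0% of all genes, with 0 members at an unadjusted p under 0.05 against 0.567%) and 0 with it (0% of all genes, with 2 members at an unadjusted p under 0.05 against 3.02%). The arrays did not overlap for 3 members with higher signals at 18 mg/kg, Cox7a1, Ndufaf7 and Ndufb1 (11.3% of all genes), and for 4 with lower ones, Cox5a, Cox8b, Ndufa10 and Ndufa9 (7.24%). The 2 with a small unadjusted p were Cox8b at -0.95 (SE 0.50 without the block) and Ndufaf6 at 0.44 (SE 0.29 without the block). Both arrays of Cox8b at 18 mg/kg were below both at 14 mg/kg. Its log2 levels at 18 mg/kg, 6.81 and 5.61, lay on either side of the level threshold of 6.47, with a mean below it. The same held for Cox4i2 at 14 mg/kg, with 5.14 and 7.30. The differences of these 2 genes in comparisons that use those arrays are therefore a description. Cox4i2 stood at 0.76 (SE 0.83), Ndufa4l2 at 0.40 (SE 0.46), Ndufa10, an accessory subunit of complex I, at -0.26 (SE 0.16) and Cox8c at -0.21 (SE 0.71). Leaving out single arrays turned its sign too: the median became 0.10 (A-CREB 14 mg/kg, number 1), -0.12 (A-CREB 14 mg/kg, number 2), -0.18 (A-CREB 18 mg/kg, number 1) or 0.16 (A-CREB 18 mg/kg, number 2), the array left out being in parentheses. Its sign turned with quantile normalization, to 0.03.

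Over both genotypes together, the mean response to 14 mg/kg had a median of 0.14, with -0.04 over all genes, and 79 members were above 0 (42.7% of all genes). Limma called 0 members (0.696% of all genes), with Atp5e, Atp5l and Uqcr10 at an unadjusted p under 0.05 (7.33% of all genes). With the block it called 0 members where 2.87% of all genes were called, and 23 had an unadjusted p under 0.05, against 16.3% of all genes. The smallest limma adjusted p of a member with the block was 0.1141, for Atp5l, a membrane subunit of the synthase. Its difference was 0.30 (SE 0.13 without the block). Atp5l read 7403, 10254.5, 7329, 9085 and 9489 on number 1 and 7585, 8899, 7074, 8176 and 6899 on number 2, so each 14 mg/kg array was above both saline arrays of its genotype. The highest were Cox8c at 0.43 (SE 0.50), Cox8b at 0.40 (SE 0.35) and Atp5md at 0.37 (SE 0.25), and the lowest Ndufa4l2 at -0.62 (SE 0.32), Cox7a1 at -0.24 (SE 0.29) and Cox7c at -0.09 (SE 0.25). Cox7c, a widely expressed subunit of complex IV, was represented by a dim probe set (mean log2 signal 7.47). With 1 array left out at a time, the median became 0.07 (A-CREB 14 mg/kg, number 1) or 0.06 (wild-type kainate, number 1), the array left out being in parentheses. After quantile normalization it was 0.04.

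The test of whether the 14 mg/kg response differed between genotypes gave a median of -0.12 (A-CREB minus wild type), with 0.01 over all genes, and 18 members were above 0 (51.9% of all genes). Limma called 0 members (0% of all genes, with 0 members at an unadjusted p under 0.05 against 0.726%). With the block it called 0 (0% of all genes), and Ndufs8 was the 1 member at an unadjusted p under 0.05 (3.58% of all genes). It stood at -0.43 (SE 0.31 without the block). Cox4i2 stood at -0.77 (SE 1.17), Ndufaf6 at -0.57 (SE 0.41), Ndufa4l2 at 0.72 (SE 0.65), Cox8b at 0.71 (SE 0.70) and Cox7a1 at 0.45 (SE 0.59). Leaving out 1 array at a time, the median became -0.21 (A-CREB 14 mg/kg, number 1), 0.00669 (A-CREB 14 mg/kg, number 2), 0.02 (wild-type kainate, number 1), -0.24 (wild-type kainate, number 2) or -0.07 (wild-type saline, number 2), the array left out being in parentheses. No difference in response between the genotypes passed the test for any member.

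After saline no member passed the test between the genotypes. The median of A-CREB minus wild type was 0.01 over the 88 members, with -0.03 over all genes, and 50 members were above 0 (44.5% of all genes). Limma called 0 members and 0% of all genes without and with the block, with Cox8b without the block, and Cox8b and Ndufa4 with it, at an unadjusted p under 0.05 (1.48% and 5.61% of all genes). The arrays did not overlap for 8 members with higher signals in A-CREB (8.76% of all genes) and 9 with lower ones (13.1%). The lowest member was Cox8b, at -1.24 (SE 0.50, limma adjusted p = 0.9999). Cox8b is dim: it read 131 and 241 in wild-type saline and 71.9 and 54.8 in A-CREB saline. The other low members were Ndufa4l2 at -0.36 (SE 0.46) and Cox6b2 at -0.31 (SE 0.32). The highest were Ndufa4 at 0.39 (SE 0.48), Cox7c at 0.29 (SE 0.36) and Ndufs8 at 0.28 (SE 0.22). The median over all 88 became, with single arrays left out, -0.01 (A-CREB saline, number 1), 0.04 (A-CREB saline, number 2), 0.05 (wild-type saline, number 1) or -0.02 (wild-type saline, number 2), the array left out being in parentheses. The core subunits had small differences, with Ndufs1 at -0.02 (SE 0.25), Sdha at -0.05 (SE 0.15), Uqcrc1 at -0.02 (SE 0.19), Cox4i1 at -0.07 (SE 0.20) and Atp5b at -0.06 (SE 0.13). Markers of the choroid plexus, a secretory tissue of the ventricles, had a median of -0.74 over 7 tested genes here, with summed signals of 30170 to 32140 in wild type and 26160 to 32790 in A-CREB. Their part in the members' values was not tested.

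At 14 mg/kg the A-CREB arrays had the lower group mean for most members. The median was -0.09, with -0.01 over all genes, and 15 members were above 0 (47.5% of all genes). Limma called 0 members without the block (0% of all genes, 0 members at an unadjusted p under 0.05 against 1.27%) and 0 with it (0.0378% of all genes, with Ndufs3 and Ndufs7 at an unadjusted p under 0.05 against 4.99%). The arrays did not overlap for 18 members with lower signals in A-CREB (11.8% of all genes) and for Ndufs4, an accessory subunit of complex I, with higher ones (9.99%), at 0.16 (SE 0.17). Among the 18 was Atp5b, with 17337 and 17240 against 18039 and 18818 in wild type, and Uqcr10, with 5226 and 4730 against 5510 and 6043. The lowest were Cox4i2 at -0.55 (SE 0.83), Cox8b at -0.53 (SE 0.50) and Ndufaf6 at -0.34 (SE 0.29). Ndufa4l2 stood at 0.36 (SE 0.46) and Cox7a1 at 0.28 (SE 0.41). Leaving out 1 array at a time, the median became -0.19 (A-CREB 14 mg/kg, number 1), -0.00649 (A-CREB 14 mg/kg, number 2), 0.00833 (wild-type kainate, number 1) or -0.21 (wild-type kainate, number 2), the array left out being in parentheses. This comparison shares the wild-type kainate arrays with the one within wild type. Over saline and 14 mg/kg together the median was -0.04, limma called 0 members (0% of all genes) with 1 at an unadjusted p under 0.05 (2.03% of all genes), Cox8b at -0.88 (SE 0.35). The limit given for Cox8b after saline holds for that value too. In that mean 28 members were above 0 (44.1% of all genes). With the block 0 were called (0.0303% of all genes), with 4 at an unadjusted p under 0.05 (6.58% of all genes). Cox7a2l, a factor that joins complexes III and IV, stood at -0.23 (SE 0.13), Atp5d, the delta subunit of the synthase, at -0.23 (SE 0.14) and Ndufa4 at 0.26 (SE 0.34). Atp5md stood at 0.17 (SE 0.25) and Cox7c at 0.16 (SE 0.25).

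CREB binds the palindrome TGACGTCA, the cAMP response element, or its core TGACG, so promoters of members were read for these letters. RefSeq promoters (build GRCm38.p6, 250 bases before to 50 after the start) matched 72 of the 88 members, with 77 promoters. The palindrome was in the promoters of 3 members, Ndufa10, Ndufb2 and Uqcrfs1, that is in 3.9% of the members' promoters and 1.79% of all 32851 promoters. The core, on either strand and including the palindromes, was found for 26 members, in 36.4% of their promoters and 20.8% of all. The 3 promoters with the whole palindrome are shown because they are the ones in which the data on a CREB inhibitor can be set beside the element. The promoter of Cox8a, among the members with the largest differences between the replicate numbers, is shown for comparison. Capitals mark the palindrome in Ndufa10 (chr1:92473709-92474008, minus strand), Ndufb2 (chr6:39592315-39592614, plus strand) and Uqcrfs1 (chr13:30545267-30545566, minus strand). In Cox8a (chr19:7217567-7217866, minus strand) they mark the core, as CGTCA, and ACTTCCGG, the reverse complement of the ETS motif CCGGAAGT.
Ndufa10: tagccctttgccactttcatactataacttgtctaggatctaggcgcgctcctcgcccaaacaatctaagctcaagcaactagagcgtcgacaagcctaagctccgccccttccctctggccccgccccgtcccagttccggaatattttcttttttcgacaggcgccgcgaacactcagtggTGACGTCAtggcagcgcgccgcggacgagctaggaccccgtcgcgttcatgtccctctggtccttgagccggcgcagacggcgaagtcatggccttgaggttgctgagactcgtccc
Ndufb2: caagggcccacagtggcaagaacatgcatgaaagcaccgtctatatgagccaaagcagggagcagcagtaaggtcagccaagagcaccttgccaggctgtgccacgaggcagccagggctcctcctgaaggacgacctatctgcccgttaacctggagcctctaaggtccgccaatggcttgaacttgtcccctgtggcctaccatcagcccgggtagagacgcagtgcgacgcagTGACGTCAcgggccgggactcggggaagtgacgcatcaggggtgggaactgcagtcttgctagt
Uqcrfs1: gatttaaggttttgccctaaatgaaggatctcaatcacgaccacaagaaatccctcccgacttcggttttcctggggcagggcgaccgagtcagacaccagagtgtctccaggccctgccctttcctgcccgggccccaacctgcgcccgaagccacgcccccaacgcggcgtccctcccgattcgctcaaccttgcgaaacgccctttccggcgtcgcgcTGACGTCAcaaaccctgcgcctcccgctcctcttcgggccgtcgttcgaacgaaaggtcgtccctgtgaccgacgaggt
Cox8a: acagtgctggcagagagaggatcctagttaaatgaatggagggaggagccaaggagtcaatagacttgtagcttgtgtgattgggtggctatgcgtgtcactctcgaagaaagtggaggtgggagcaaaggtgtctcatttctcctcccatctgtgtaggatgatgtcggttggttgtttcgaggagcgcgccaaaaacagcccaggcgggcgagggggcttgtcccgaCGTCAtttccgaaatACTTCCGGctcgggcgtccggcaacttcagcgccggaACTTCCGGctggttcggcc

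The palindrome began 67 bases before the start in Ndufa10, 14 in Ndufb2 and 29 in Uqcrfs1. Uqcrfs1 encodes the Rieske iron-sulfur protein of complex III. The 3 genes had differences of -0.08 to 0.01 between the genotypes after saline, with a median of -0.02, and the 69 members with a promoter that lacked the palindrome had a median of 0.03. At 14 mg/kg the medians were -0.08 for both sets. In wild-type mice after kainate they were 0.23 and 0.21. No member with the palindrome passed a test between genotypes. Of the motifs of factors known for nuclear mitochondrial genes, the NRF1 core GCATGCGC was found for 11 members, in 14.3% of their promoters against 2.71% of all. The YY1 motif AAGATGGC was found for 10 members (13% against 2.75%) and the ETS motif for 5 (6.49% against 3.89%), both strands being read. The NRF1 core holders, Atp5l and Uqcrc1 among them, had a median of 0.20 in wild-type mice after kainate, and the other 61 members had 0.21. A match says only that these letters are in the window.

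Between the replicate numbers, unlike between the groups, members passed the test. This comparison sets 5 arrays against 5, and its fit includes the replicate number. Its SEs are smaller than those printed for 2 groups of 2 arrays, whose fit leaves the difference between the numbers in the spread. More calls do not by themselves mean larger differences. In a limma fit with group and number, 39 of 88 members differed between arrays numbered 2 and 1 at an adjusted p of 0.05, where 34.9% of all genes did. Of the 39, 36 were lower on number 2 and 3 were higher, and of all genes 14.3% were lower and 20.6% higher. Cox4i2, 1 of the 3, passed the level threshold only through the arrays numbered 2, with a mean log2 level of 5.99 on number 1 and 7.24 on number 2, so its difference is a description. Without it 38 of 87 members differed, 36 lower and 2 higher. The count of 39 became 25 with 1 of the 14 mg/kg A-CREB arrays left out (the same for each), 23 with 1 of the 18 mg/kg arrays left out, and 23 with no intensity trend. With quantile normalization on the same probe sets 28 members differed (28.2% of all genes), 21 lower (13.6% of all genes) and 7 higher (14.6%). The median was -0.17 over the members, with 0.04 over all genes, 20 members were above 0 (54% of all genes), and -0.08 over the members after quantile normalization. All 5 arrays numbered 2 lay below all 5 numbered 1 for 23 members, which holds for 7.26% of all genes, and above them for Cox8c and Ndufb6, and for Cox4i2 with the limit just given, which holds for 13.2%.

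**Figure D3:**
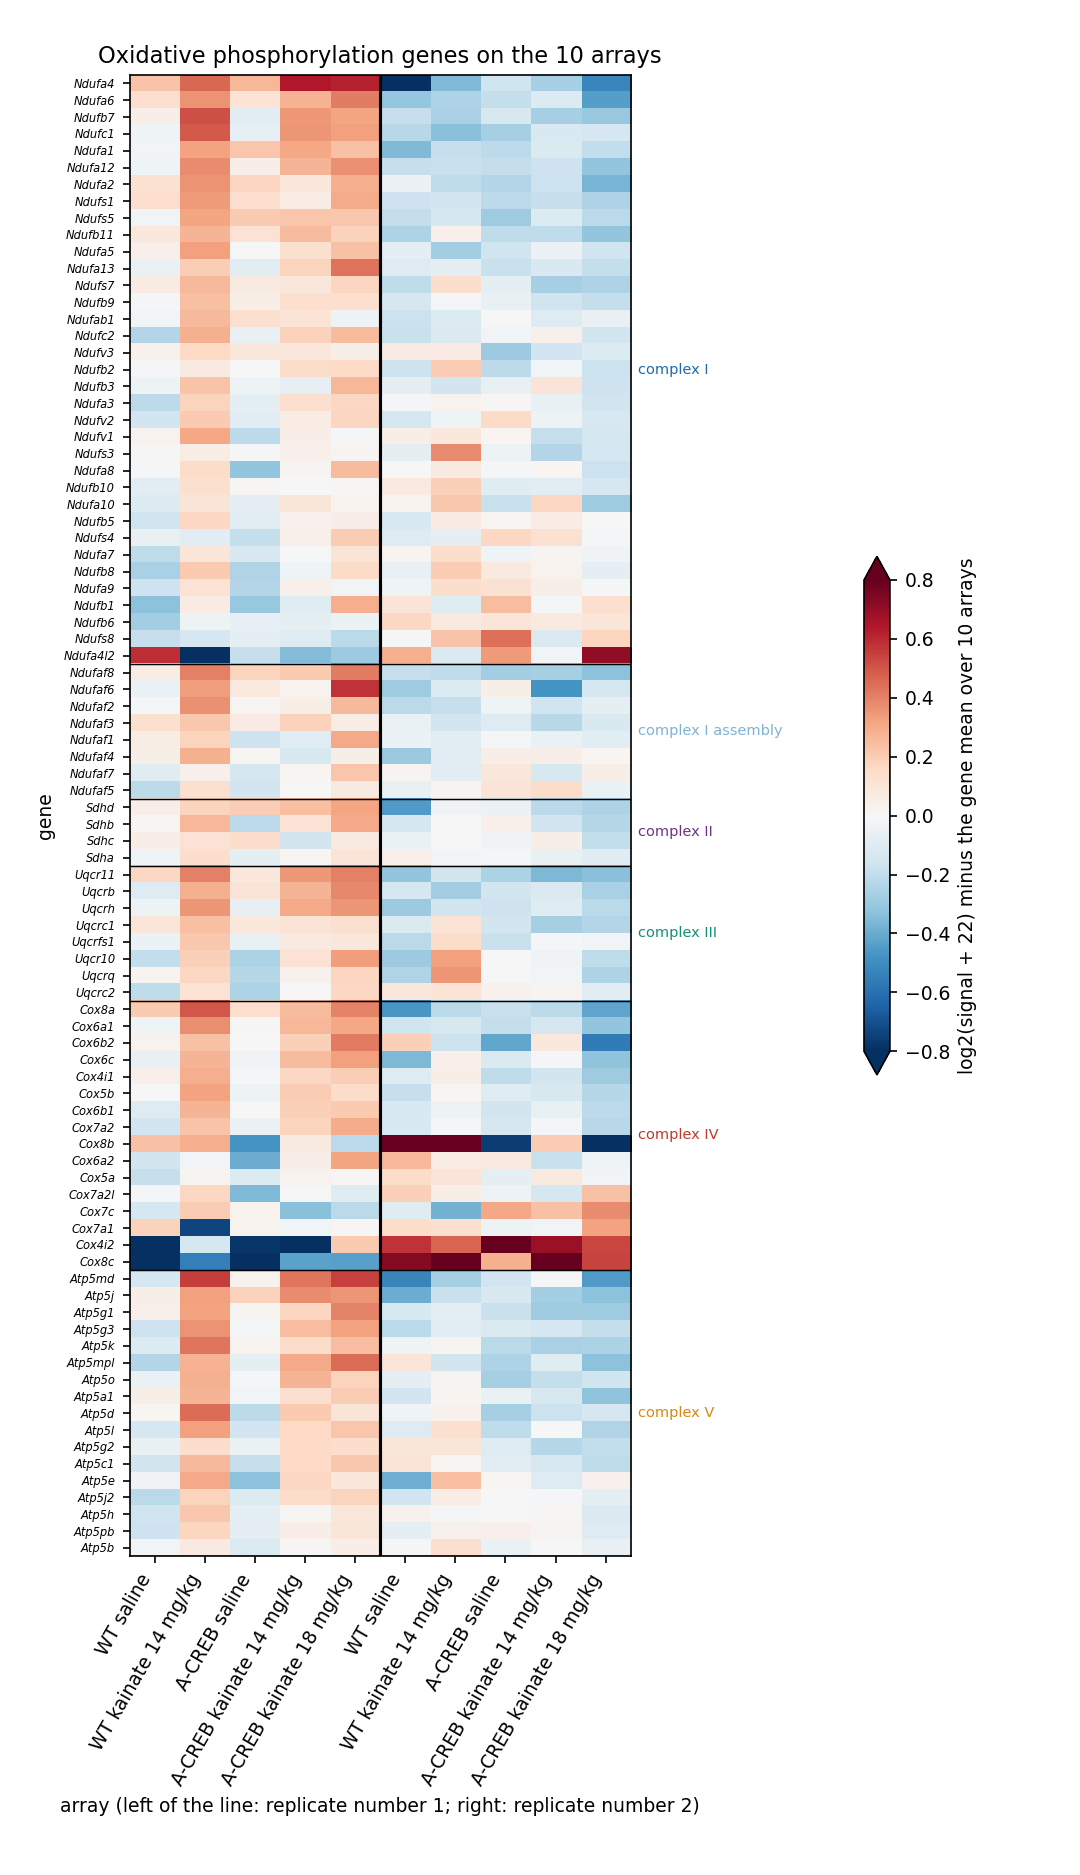
Heat map of the 88 genes (rows, by complex and, within it, by the difference between the replicate numbers) on the 10 arrays (columns, number 1 left of the line and number 2 right of it). Colour is log2(signal + 22) minus the gene's mean over the 10 arrays, and the scale ends at 0.8 to either side. The median deviation over the 88 was 0.24 on wild-type kainate replicate 1 and 0.20 on A-CREB kainate 18 mg/kg replicate 1, and -0.17 on A-CREB kainate 18 mg/kg replicate 2.

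Lower signals on number 2 were found in every complex. Of all tested genes 14.3% were called lower and 20.6% higher. Of all tested probe sets with a mean log2 signal above 12, where most members lie, 33.7% were lower and 7.93% higher. Whether a complex departs from that share was not tested. By limma, 14 of 35 complex I genes were lower and 1 higher, 3 of 8 assembly factors lower, 1 of 4 complex II genes lower, 4 of 8 complex III genes lower, 6 of 16 complex IV genes lower and 2 higher (Cox4i2 among these 2), and 8 of 17 complex V genes lower. Ndufa4, first described in complex I and later placed in cytochrome c oxidase, had the lowest value. It read 8014, 9401, 8237, 10670 and 10486 on number 1 and 3632, 5352, 6117, 5693 and 4754 on number 2. All 5 pairs went the same way, with a difference of -0.88 (SE 0.10, limma adjusted p = 6.7e-05). Cox8a, the common form of subunit 8, read 6627 to 8086 on number 2 and 10054 to 12892 on number 1 (-0.59, SE 0.09). Uqcr11, a small subunit of complex III, stood at -0.56 (SE 0.08), Atp5md at -0.56 (SE 0.11), and Atp5j, coupling factor 6 of the synthase stalk, at -0.52 (SE 0.08). Ndufa6, an accessory subunit of complex I, stood at -0.52 (SE 0.09), the assembly factor Ndufaf8 at -0.50 (SE 0.10) and Sdhd, a membrane anchor of complex II, at -0.39 (SE 0.09). The next lowest of complex I were Ndufb7 at -0.46, Ndufc1 at -0.43 and Ndufa1 at -0.42.

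The members with the smallest differences stood beside them in the same complexes. Ndufb5, an accessory subunit of complex I, was at 3.7e-05 (SE 0.07), Ndufaf7 at -0.02 (SE 0.10), Sdha at -0.06 (SE 0.08), Uqcrq, a small subunit of complex III, at -0.07 (SE 0.10), Cox8b at 0.03 (SE 0.26) and Atp5b at 0.00155 (SE 0.07). Higher on number 2 were Cox8c at 1.33 (SE 0.12) and Ndufs8 at 0.29 (SE 0.09, limma adjusted p = 0.02045). Ndufa4l2 stood at 0.48 (SE 0.21) and was not called. Cox8c read 224, 319, 243, 347 and 346 on number 1 and 805, 856, 584, 942 and 701 on number 2, with no overlap. Cox4i2 read 13.4 to 90.8 on number 1, below the median signal of each of those arrays. On number 2 it read 113 to 155, where the median signals of the arrays were 134 to 152. There it was above the median of its array only in A-CREB saline, so it was dim on both numbers. Ndufs8 lost its call under several settings and stood at -0.00912 when probe sets with the suffixes _s_at, _x_at and _a_at were left out.

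The sign of the difference went with the signal level. The 88 members have 161 tested probe sets. Of the 103 with a mean log2 signal above 12, 43 were lower on number 2 and 2 higher by limma, and of all tested probe sets above that level 33.7% were lower and 7.93% higher. Of the 23 between 10 and 12, 10 were lower and 1 higher, with 21.6% and 12.4% of all. Of the 35 below 10, 2 were lower and 10 higher, with 8.04% and 24.6% of all. Some of the 35 passed the level threshold only through the arrays numbered 2, as Cox4i2 did, or only through those numbered 1. Examples are a dim probe set of Uqcrq (mean 6.89, difference 1.31) and a dim probe set of Ndufab1 (mean 6.51, difference -0.65). The counts below 10 are therefore a description. The 857 bright genes that are not members had a median of -0.14 between the numbers, and the 64 bright members had -0.18. What sets the numbers apart was not tested.

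**Figure D4:**
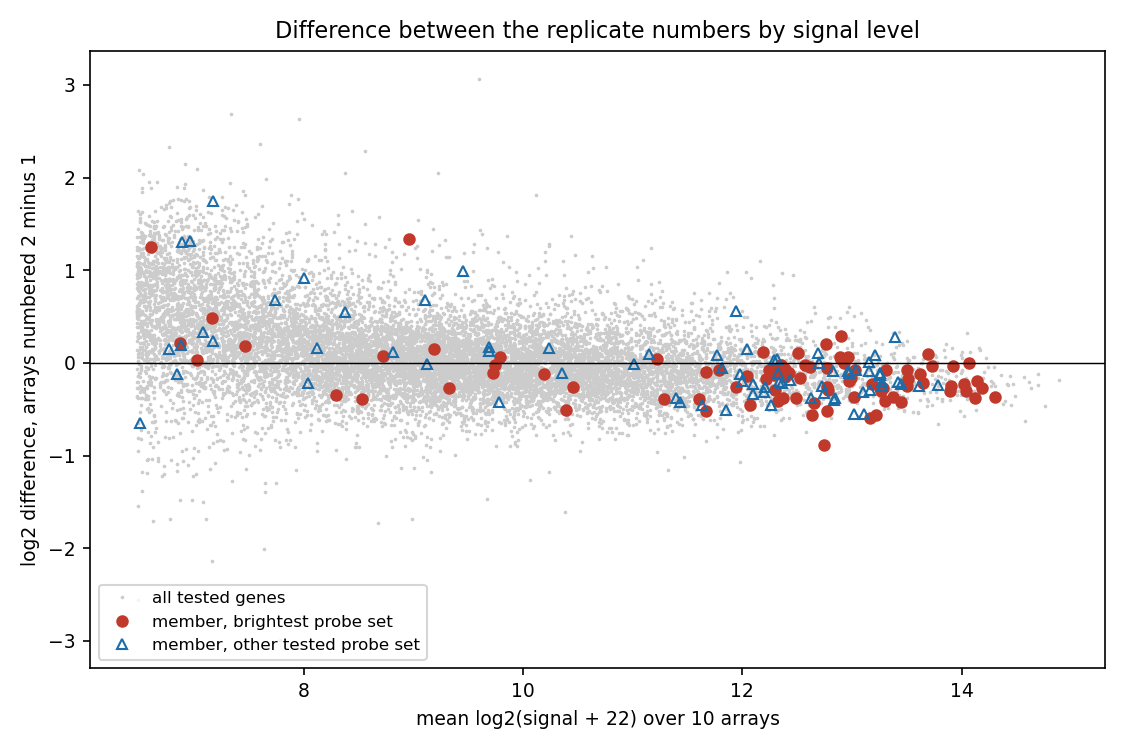
Log2 difference between arrays numbered 2 and 1 (vertical axis) against the mean log2(signal + 22) over the 10 arrays (horizontal axis). Grey points are all tested genes, red circles the brightest probe set of each member and blue triangles the members' other tested probe sets. Of the 103 member probe sets above 12, 43 are lower on number 2 and 2 higher, and of the 35 below 10, 2 are lower and 10 higher. Some of the 35 passed the level threshold only through the arrays of 1 number, so their counts are a description.

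Different probe sets of 1 gene disagreed between the numbers. Of the 88 members, 47 had more than 1 tested probe set. Of their 73 other probe sets, 41 had the sign of the brightest and 32 the opposite sign, and in 3 cases both were called. Sdhd was -0.39 by its brightest probe set and 0.99 by another. Atp5o, a stalk subunit of the synthase, was -0.27 and 0.56, and Atp5a1, the alpha subunit of its head, was -0.25 by its brightest, 0.54 by a dim one and -0.20 by another bright one. Cox5a, a subunit of complex IV, was at 0.09 by its brightest probe set, and 0.28 and -0.56 by the others. Cox8c was at 1.74 by its second probe set, which read 18.6, 42.0, 34.4, 72.3 and 199 on number 1 and 281, 155, 358, 163 and 321 on number 2. That probe set passed the level threshold only through the arrays numbered 2, so its direction adds no support to the first. Between wild-type kainate and saline, 62 of the 73 had the sign of the brightest, between A-CREB 14 mg/kg and saline 51 of 73, and between the genotypes after saline 40 of 73.

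Of 50 tested electron carriers and other assembly factors, limma called Coq10b in wild-type mice after kainate. Coq10b encodes a protein that binds coenzyme Q and supports its use in electron transport. It read 1058 and 864 in wild-type saline and 2107 and 2187 after kainate, a difference of 1.15 (SE 0.18, limma adjusted p = 0.04478). In A-CREB mice it read 1053 and 990 after saline, 2726 and 2718 at 14 mg/kg and 2141 and 2697 at 18 mg/kg. Its differences of 1.40 (limma adjusted p = 0.009574) and 1.22 (limma adjusted p = 0.03166) passed too, and the test of the 14 mg/kg response between genotypes gave 0.25 (SE 0.25). No array of Coq10b overlapped between saline and kainate within a genotype. Cycs, cytochrome c itself, had a difference of 0.14 (SE 0.15) in wild-type mice and did not pass. Ppargc1a, a coactivator of mitochondrial gene expression and a known CREB target, stood at -0.32 (SE 0.19) there and at -0.24 (SE 0.19) between the genotypes after saline. Its sign was not held: it stood at 0.12 (SE 0.19) between the genotypes at 14 mg/kg. In A-CREB mice it stood at 0.04 after 14 mg/kg and -0.28 after 18 mg/kg, and none of these passed. Creb1 itself stood at 0.10 (SE 0.21) between the genotypes after saline.

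The replicate block added calls among the listed metabolic genes. Slc2a1, a glucose transporter, had a difference of 0.99 in A-CREB mice after 14 mg/kg (limma adjusted p = 0.202 without the block and 0.005139 with it), and Slc16a1, a lactate and pyruvate transporter, of 0.77 (limma adjusted p = 0.2996 and 0.01618). At 18 mg/kg Slc16a1 stood at 0.71 (limma adjusted p = 0.6851 and 0.0428). In the mean response to 14 mg/kg over both genotypes, Slc2a1 (0.79), Slc16a1 (0.63) and the neuronal glucose transporter Slc2a3 (0.39) were called higher with the block, at limma adjusted p of 0.001159, 0.003658 and 0.02996. Cox15, an enzyme of heme A synthesis for complex IV, at -0.70, and Pprc1, a coactivator related to Ppargc1a, at -0.54, were called lower with it, at limma adjusted p of 0.008756 and 0.04312. Without the block none of these 5 was called.

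Limma called none of the 17 TCA cycle genes, 18 glycolysis genes, 18 regulators of mitochondrial biogenesis, 13 mitochondrial carriers and porins, 76 mitochondrial ribosomal protein genes, 46 cytosolic ribosomal protein genes, 38 proteasome genes or 12 antioxidant enzymes in wild-type mice after kainate, without or with the block. Their medians were 0.03, 0.16, -0.19, 0.14, 0.12, 0.21, 0.12 and 0.15 in that order, so the cytosolic ribosomal protein genes had a median close to that of the members and the regulators of biogenesis one of the opposite sign. Between the replicate numbers 14.3% of all tested genes were lower on number 2 and 20.6% higher. Among all tested probe sets with a mean log2 signal above 12 these shares were 33.7% and 7.93%. Of the 46 cytosolic ribosomal protein genes 17 were lower on number 2 and 2 higher. Of the glycolysis genes 10 were lower and 1 higher, of the TCA cycle genes 6 lower and 0 higher, of the proteasome genes 12 lower and 2 higher, of the carriers and porins 5 lower and 0 higher, and of the mitochondrial ribosomal protein genes 15 lower and 10 higher. The 1 tested gene of the mitochondrial DNA, ND5, which encodes a proton-pumping core subunit of complex I, was lower on number 2 as well (-0.63). Markers of the striatum, another brain region, had a positive median in both comparisons. Of 8 listed, 6 were tested, with a median of 0.48 in wild-type mice after kainate and 1.02 between the numbers. There 4 of the 6 were called higher on number 2, against 20.6% of all genes. Their summed signal was 3424 and 5539 on the wild-type saline arrays and 3136 and 14040 on the wild-type kainate arrays. Only 1 kainate array was thus above the saline arrays, and the other was below both. In A-CREB mice the summed signal was 3379 and 4265 after saline and 2787 and 3913 after 14 mg/kg. Markers of excitatory neurons had a median of -0.29 over 6 genes in wild-type mice after kainate and -0.43 in A-CREB mice after 14 mg/kg, with none called. Those of dentate granule cells had a median of -0.55 in A-CREB mice after 14 mg/kg, with summed signals of 9181 to 9550 after saline and 7909 to 8170 after kainate. Of the 7 tested, C1ql2 was lower in A-CREB than in wild type at 14 mg/kg with the block (-1.48, limma adjusted p = 0.01646, and 0.4563 without it). The dentate markers did not share a direction between the genotypes after saline. There Tdo2 (0.80) and Prox1 (0.63) were higher in A-CREB, and Stxbp6 (-0.54) and C1ql2 (-0.34) lower, none of them called. The part of these markers in the members' values was not tested.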

How the data were processed

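The deposited table holds MAS5 signal intensities of 45101 probe sets on 10 arrays, made with MAS5 in GCOS per the submitters' processing notes (versions not given there). From these intensities log2(signal + 22) was computed, and probe sets were named through the platform annotation, which names 1 gene for 34945. The upper 60% of probe sets by mean were tested, with the brightest probe set for each of 13218 genes. Differences were tested with limma 3.58.1 in R 4.3.3 (lmFit, eBayes with an intensity trend) on 5 group means, with 5 residual degrees of freedom, two-sided, with Benjamini-Hochberg adjustment over all tested genes and a threshold of 0.05. The script was tested on simulated data. Same-numbered arrays deviated together: over 10 pairs of groups, the correlation of their deviations was 0.518 to 0.642. The numbers therefore entered an alternative fit as a replicate block (4 residual degrees of freedom), which is also the source of the comparison between numbers. Every SE printed for a difference between groups is from the fit without the block, also beside a p-value with it. Other alternatives changed the pseudocount, filter, normalization, trend, probe set and arrays. Quantile normalization on the same probe sets and the comparison with genes above a mean of 12 were chosen after seeing the data. The members and lists were chosen with earlier results of these data known. Named genes are the members called in a comparison (up to 14 highest and 10 lowest), the 3 highest and lowest of each, the extremes of each complex between numbers, those with opposed probe sets, 5 well-known subunits, and, of the genes with the smallest p in 24 lists, those called or central to the pathway. No SD is given for 2 arrays, and their number limits the precision. All 88 members were matched to the RefSeq gene table by gene ID, and 72 of them to its promoter table.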

Additional observations from a re-analysis of the deposited data

How the results depend on the processing

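No member was called in any of the 9 comparisons between groups under any alternative listed in the processing, and the replicate block changed no call of a member (0 called in each). The count of members that differed between the replicate numbers was 39, 23 with no intensity trend and 23 to 41 when an array was left out. In that comparison, leaving out an array also removes what its partner tells about the number. Ndufs8 turned from 0.29 to -0.00912 without _s_at, _x_at and _a_at probe sets. Without those probe sets the median of A-CREB minus wild type was 0.0401 after saline and -0.0238 over saline and 14 mg/kg. When an array was left out, that median ranged from -0.0154 to 0.054 after saline, from -0.213 to 0.00833 at 14 mg/kg and from -0.0937 to 0.0215 over both. It ranged from -0.184 to 0.161 between the doses and from -0.239 to 0.017 for the difference between the responses. Each such fit has a group with 1 array, assumed to vary like the others. Cox4i2 had no value with the upper 40% of probe sets. The typical 95% interval of a member, 0.44 to either side without the block and 0.30 with it, is wider than the median differences, so changes of their size were not detectable for single genes.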
